A study of Mus musculus with 8 samples.

Results

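Gabra2, Gabra3, Gabra4 and Gabra5 encode alpha subunits of the GABA-A receptor, and their mRNAs were measured in mouse hippocampus after treatment with KU55933, a blocker of the ATM kinase. The members were chosen by gene symbol, and all rows of the transcript table that carried 1 of these 4 symbols were taken, which gave 17 transcripts of 74764 and 4 genes of 19558. The 8 RNA-seq libraries came from hippocampus of WT mice of the strain C57BL/6 KP at P40. In 4 of them the mice had received KU55933 at 7.5 mg/kg, and in the other 4 the vehicle, 4% DMSO in saline. All mice were anaesthetised and dosed through the nose in small drops to alternate nostrils. For sex and for the time between dosing and tissue collection, no value is given in the sources used here, and both were left out. The series compared KU55933 directly with vehicle, and the same comparison is described here for these 4 genes. The labels count 4 mice in each group and name no litter, day or batch, so the p-values measure only the spread between these libraries.

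The GABA-A receptor is a chloride channel made of 5 subunits, usually a pair of alpha, a pair of beta and a gamma or delta subunit. GABA binds between the alpha and beta subunits, and the alpha subunit largely sets where the receptor sits and which benzodiazepines act on it. In the hippocampus Gabra2 (alpha 2) is known for synapses on pyramidal cells, including those on the axon initial segment. Gabra5 (alpha 5) is known for extrasynaptic receptors that carry tonic inhibition of pyramidal cells. Gabra4 (alpha 4) pairs with the delta subunit in tonic receptors of dentate granule neurons, and Gabra3 (alpha 3) is known mainly from thalamic, brainstem and neocortical neurons.

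Gabra4 differs from Gabra2, Gabra3 and Gabra5 at the codon that decides whether classical benzodiazepines such as diazepam can bind. The stretch of 63 bases around it is shown here because its codon sets Gabra4 apart in pharmacology. It was read 5′ to 3′ from the GENCODE M21 coding sequence of each gene's main protein-coding transcript, and the codon is in capitals.
Gabra2: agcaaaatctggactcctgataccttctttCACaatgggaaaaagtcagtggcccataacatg
Gabra3: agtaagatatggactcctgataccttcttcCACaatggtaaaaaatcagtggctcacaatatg
Gabra4: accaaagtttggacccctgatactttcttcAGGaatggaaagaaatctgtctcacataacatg
Gabra5: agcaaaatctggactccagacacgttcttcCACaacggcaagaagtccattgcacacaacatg
Gabra2, Gabra3 and Gabra5 carry a histidine codon there, as subunits of diazepam-sensitive receptors do. Gabra4 carries an arginine codon, as is known for subunits of diazepam-insensitive receptors. Within the stretch Gabra2 and Gabra3 were the closest pair, with 54 of 63 bases identical (85.7%). Gabra4 and Gabra5 shared 45 of 63 bases (71.4%), as did Gabra4 and Gabra3.

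Levels were compared between the genes per length, as TPM (counts per kilobase of transcript, scaled to the same total in every library). Gabra5 had the highest level, 187 ± 9.97 TPM in vehicle and 196 ± 15.5 TPM with KU55933 (SD, n = 4 in each group). It stood at the 94.5th percentile of the 15481 genes tested. Gabra3 had the lowest, 31.2 ± 10.3 TPM in vehicle and 53.5 ± 6.35 TPM with KU55933, at the 70.3rd percentile. Between them, Gabra4 had 66.3 ± 4.24 TPM in vehicle and 75.1 ± 9.69 TPM with KU55933. Gabra2 had 63.4 ± 3.24 TPM in vehicle and 75.3 ± 11.95 TPM with KU55933. Gabra5 came first and Gabra3 last in all 8 libraries. Gabra4 exceeded Gabra2 in 5 libraries and Gabra2 exceeded Gabra4 in the other 3, so these neighbours in the order did not differ beyond their spread.

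The share of each gene in the summed TPM of the 4 genes showed the same order. Gabra5 made up 53.7% ± 1.75 of this sum in vehicle, with a range of 51.9% to 55.6%. With KU55933 its share was 49.1% ± 1.92, with a range of 46.4% to 50.7%, and the groups did not overlap. The groups of its TPM did overlap. By the levels of single genes, groups did not overlap for 26.7% of all genes tested. Gabra3 made up 8.99% ± 3.07 in vehicle and 13.4% ± 1.26 with KU55933, and its groups overlapped, with 5.17% to 12.25% in vehicle and 12.02% to 14.8% with KU55933. The shares of Gabra2 (18.2% and 18.8%) and Gabra4 (19.1% and 18.7%) lay close together in the 2 groups. Shares sum to 100%, so a higher share of 1 gene lowers the others, and no test was made of them. They were not adjusted for the GC trend described below, and its part in them was not tested.

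Gabra3 was the 1 gene of the 4 that passed the test between KU55933 and vehicle, and it was higher with KU55933. Of all genes tested, 21.6% were called, 6.92% higher and 14.6% lower, so 1 call among 4 genes is near the background. An unadjusted p under 0.05 was found for 2 of the 4, Gabra3 and Gabra2, and for 37.8% of all genes. The values below are normalised CPM, which are counts scaled to a common library size (edgeR's TMM). Gabra3 had 60.7, 42.8, 52.0 and 26.3 CPM in vehicle replicates 1 to 4. It had 91.6, 75.2, 77.7 and 66.6 CPM in KU55933 replicates 1 to 4. Every KU55933 library lay above every vehicle library, and vehicle replicate 4 was the lowest of all. Groups that do not overlap were found for 26.7% of all genes tested. The means were 45.5 ± 14.7 CPM and 77.8 ± 10.4 CPM, a 1.71-fold difference. On the log2 scale Gabra3 rose by 0.77 ± 0.23 (SE, 95% confidence interval 0.26 to 1.28, edgeR quasi-likelihood test, adjusted p = 0.0404). The call was close to the threshold of 0.05. It was lost when vehicle replicate 2 (adjusted p = 0.105), vehicle replicate 3 (0.0763), or KU55933 replicate 1 (0.0809), 2 (0.0726) or 3 (0.0716) was left out, while the log2 difference stayed between 0.59 and 0.95.

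Gabra2 lay just outside the threshold. It had 112, 127, 119 and 116 CPM in the vehicle libraries and 145, 157, 121 and 145 CPM in the KU55933 libraries, in replicate order. In 3 of the 4 KU55933 libraries it exceeded all vehicle libraries, while KU55933 replicate 3 lay within the vehicle range. The means were 118 ± 6.38 and 142 ± 15.3 CPM, and the log2 difference was 0.26 ± 0.09 (interval 0.07 to 0.45, edgeR, adjusted p = 0.0525). The value sat so near the threshold that DESeq2 called it (adjusted p = 0.0210), as did edgeR with RLE scaling (0.0481).

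Gabra4 and Gabra5 were not called in either direction. Gabra4 had 105, 116, 102 and 119 CPM in vehicle and 138, 134, 108 and 117 CPM with KU55933, so KU55933 replicates 3 and 4 lay inside the vehicle range. Its log2 difference was 0.17 ± 0.09 (interval −0.04 to 0.37, edgeR, adjusted p = 0.209). Gabra5, the most abundant of the 4, had 179, 208, 189 and 202 CPM in vehicle and 225, 192, 187 and 189 CPM with KU55933. Only KU55933 replicate 1 lay above the vehicle range. The log2 difference of Gabra5 was 0.030 ± 0.083, and its interval of −0.15 to 0.21 leaves room for a small difference in either direction.

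**Figure D1:**
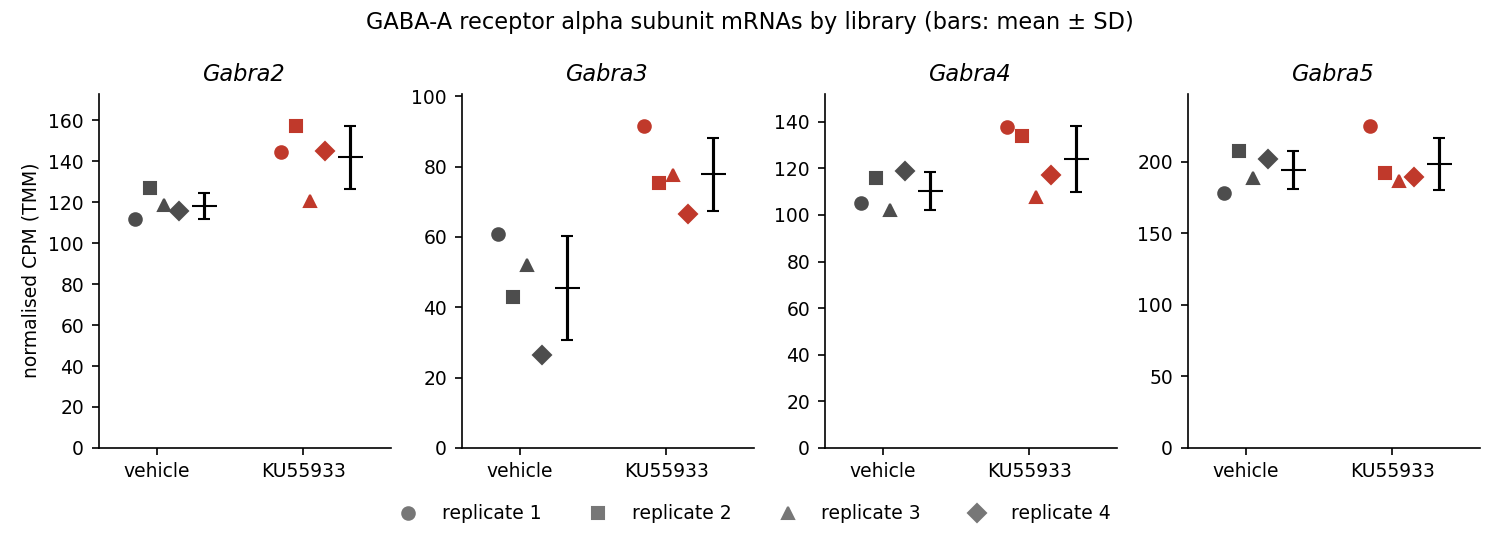
Normalised CPM of Gabra2, Gabra3, Gabra4 and Gabra5 in the 4 vehicle and 4 KU55933 libraries, 1 marker shape per replicate number, with the group mean ± SD beside the points. Only Gabra3 shows groups that do not overlap, with means of 45.5 and 77.8 CPM.

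The libraries differed in how counts depended on GC content, and the difference followed the treatment. The slope of a library's log2 level on transcript GC content was 0.216 ± 0.063 per 10 points of GC in vehicle and −0.216 ± 0.116 in KU55933, relative to the mean of all libraries. All vehicle slopes were above 0 and all KU55933 slopes below 0, so the treatment and this GC trend cannot be told apart by design. The 4 members lie on the GC-poor side, with 38.4% (Gabra2), 42.4% (Gabra4), 43.1% (Gabra3) and 45.9% GC (Gabra5), where most genes had higher counts with KU55933. Among the 370 genes within 1 GC point of Gabra2 the median log2 difference was 0.25, and Gabra2 itself, at 0.26, stood above 51.1% of them. Gabra4, at 0.17, lay below the median of 0.21 of its 1095 GC neighbours. Gabra5, at 0.030, lay below the median of 0.17 of its 1551 neighbours and above 20.4% of them. Gabra3, at 0.77, stood above 98.2% of its 1183 neighbours, whose median was 0.20.

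**Figure D2:**
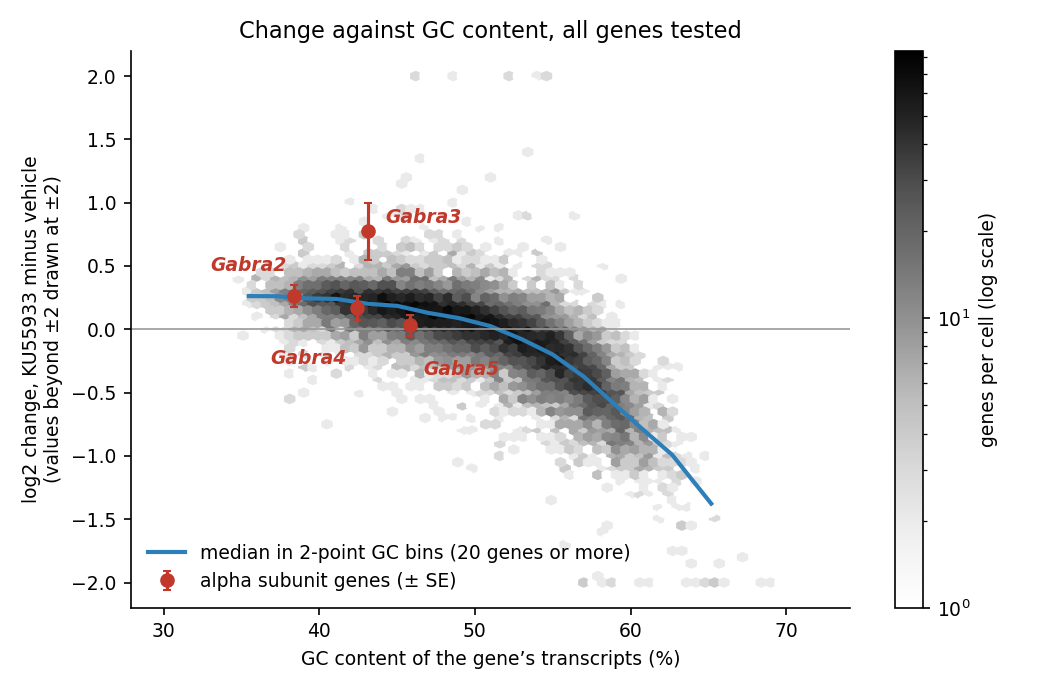
Log2 difference between KU55933 and vehicle (vertical axis) against the GC content of each gene's transcripts in percent (horizontal axis) for the tested genes that have a GC value, shaded by the number of genes. The line is the median in bins of GC content, and the red points are the 4 members with their SE. Gabra2 lies on the line, Gabra4 and Gabra5 lie below it and Gabra3 lies above it.

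The test was repeated with an offset for each library's dependence on GC content and transcript length, which takes out any treatment effect that follows these properties as well. With it none of the 4 genes was called by edgeR, 1 of 4 had an unadjusted p under 0.05, and 1.96% of all genes were called (0.672% higher and 1.29% lower). Gabra3 then differed by 0.59 ± 0.22 on the log2 scale (interval 0.09 to 1.08, adjusted p = 0.236). Gabra2 differed by 0.037 ± 0.076 (interval −0.13 to 0.21) and Gabra4 by −0.042 ± 0.084 (interval −0.23 to 0.14). Gabra5 differed by −0.12 ± 0.08 (interval −0.29 to 0.04, adjusted p = 0.456). The directions of Gabra4 and Gabra5 were thus opposite in the 2 fits, and neither was called in either. Without the offset the 4 genes had a median log2 difference of 0.22, beside 0.01 for all genes. With the offset the median was −0.0021.

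**Figure D3:**
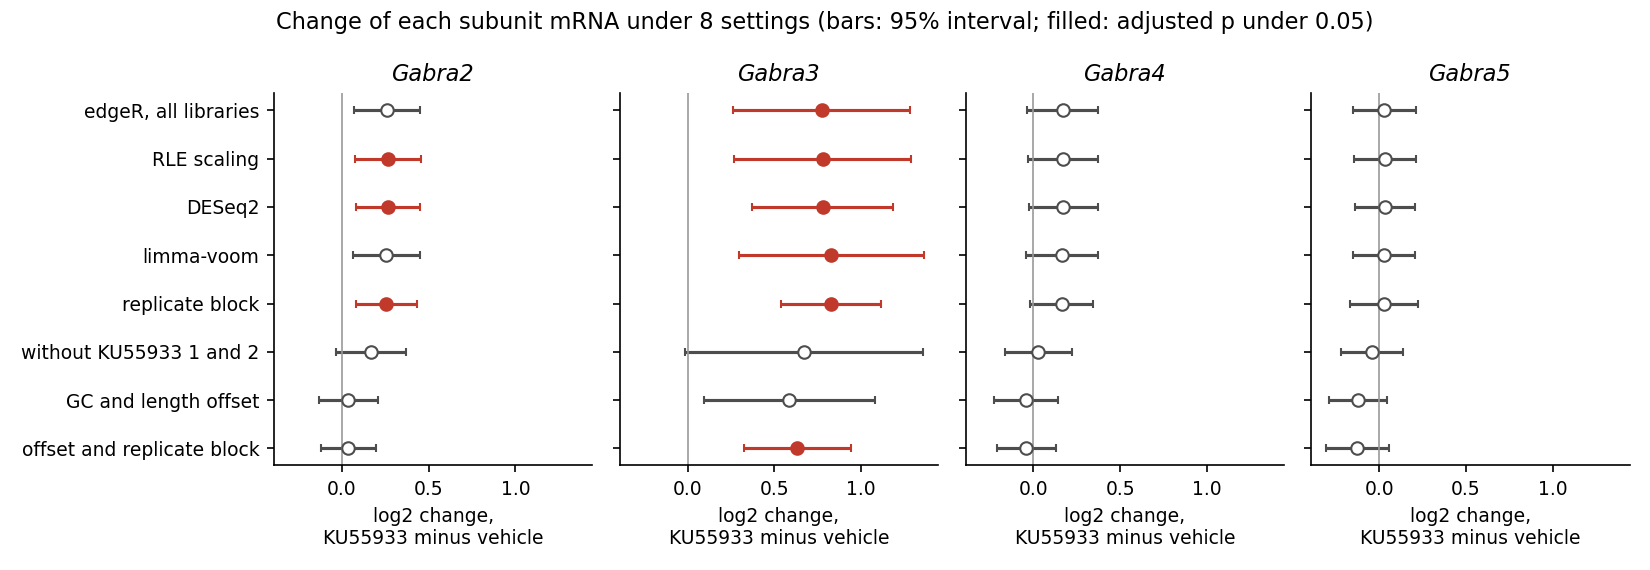
Log2 difference between KU55933 and vehicle, with its 95% confidence interval, for each of the 4 genes with edgeR on all libraries and 7 alternatives. Filled points have an adjusted p under 0.05. The estimate of Gabra3 stays above 0 in every setting shown, but its interval crosses 0 without KU55933 replicates 1 and 2. The estimates of Gabra4 and Gabra5 lie on both sides of 0.

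KU55933 replicates 1 and 2 had much higher counts of choroid plexus marker genes than the rest, and markers of other regions also differed between libraries. The 8 choroid plexus markers, among them the transthyretin gene Ttr, summed to 1176 and 1251 CPM in KU55933 replicates 1 and 2. They summed to 77.5 and 60.9 CPM in replicates 3 and 4 and to 54.2 to 115 CPM in vehicle, and 1 of the 8 was called higher. With KU55933 replicates 1 and 2 left out, Gabra3 differed by 0.67 on the log2 scale and was not called (edgeR, adjusted p = 0.209). Fewer cells of a type and less RNA per cell cannot be told apart in these bulk samples.

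The hippocampal markers were present in all libraries, with none of them at 0 throughout. Dentate granule neuron markers summed to 391.6 to 623 CPM in vehicle and 359 to 447 CPM with KU55933, with 1 of 6 called lower. CA1 pyramidal neuron markers summed to 345 to 630 CPM in vehicle and 334 to 514 CPM with KU55933, with 2 of 5 called lower. CA3 and CA2 markers summed to 146 to 163 CPM in vehicle and 122 to 146 CPM with KU55933, with 1 of 6 called lower. General neuronal markers summed to 5375 to 5783 CPM in vehicle and 5459 to 6826 CPM with KU55933, with 1 of 6 called higher (Map2) and 2 lower (Rbfox3 and Tubb3). Of all genes tested, 14.6% were called lower and 6.92% higher. With the offset for GC content and length, none of the 17 dentate granule, CA1 or CA3 and CA2 markers was called by edgeR, and 4 had an unadjusted p under 0.05. Rbfox3, a gene of most mature neurons, was the only marker of any list called with the offset, lower by a log2 difference of −0.41 (edgeR, adjusted p = 0.0127). The vehicle library lowest in Gabra3, replicate 4, was highest in dentate granule markers (623 CPM) and lowest in CA1 markers (345 CPM).

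Gabra3 is known from neurons outside the hippocampus, so the markers of neighbouring neurons are given beside it. Markers of subcortical neurons summed to 81.8, 68.8, 73.2 and 67.6 CPM in vehicle and 135, 118, 75.4 and 112 CPM with KU55933. Of the 8, 3 were called higher (Slc17a6, which encodes the vesicular glutamate transporter VGLUT2, the transcription factor gene Tcf7l2 and the estrogen receptor gene Esr1). Of all genes, 6.92% were called higher, and with the offset edgeR called none of the 8 (adjusted p = 0.0624 for Slc17a6), while 6 had an unadjusted p under 0.05. None of the 8 was at 0 in all libraries. Markers of neocortical neurons summed to 149, 93.0, 116 and 75.8 CPM in vehicle and 123, 99.5, 156 and 116 CPM with KU55933. Of these 6, Foxp2 was called higher and Rprm lower, and none was at 0 in all libraries. In vehicle the order of the 4 libraries by Gabra3 was also the order by neocortical, subcortical, CA1 and choroid plexus markers. With KU55933 the order by Gabra3 differed from the order by each of these lists. Replicate 1 was highest in Gabra3 and in subcortical markers, but not in neocortical, CA1 or choroid plexus markers. Replicate 3 was highest in neocortical and CA1 markers and lowest in subcortical markers (75.4 CPM), while replicate 4 was lowest in Gabra3. The part of these cells in the difference of Gabra3 was not tested.

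**Figure D4:**
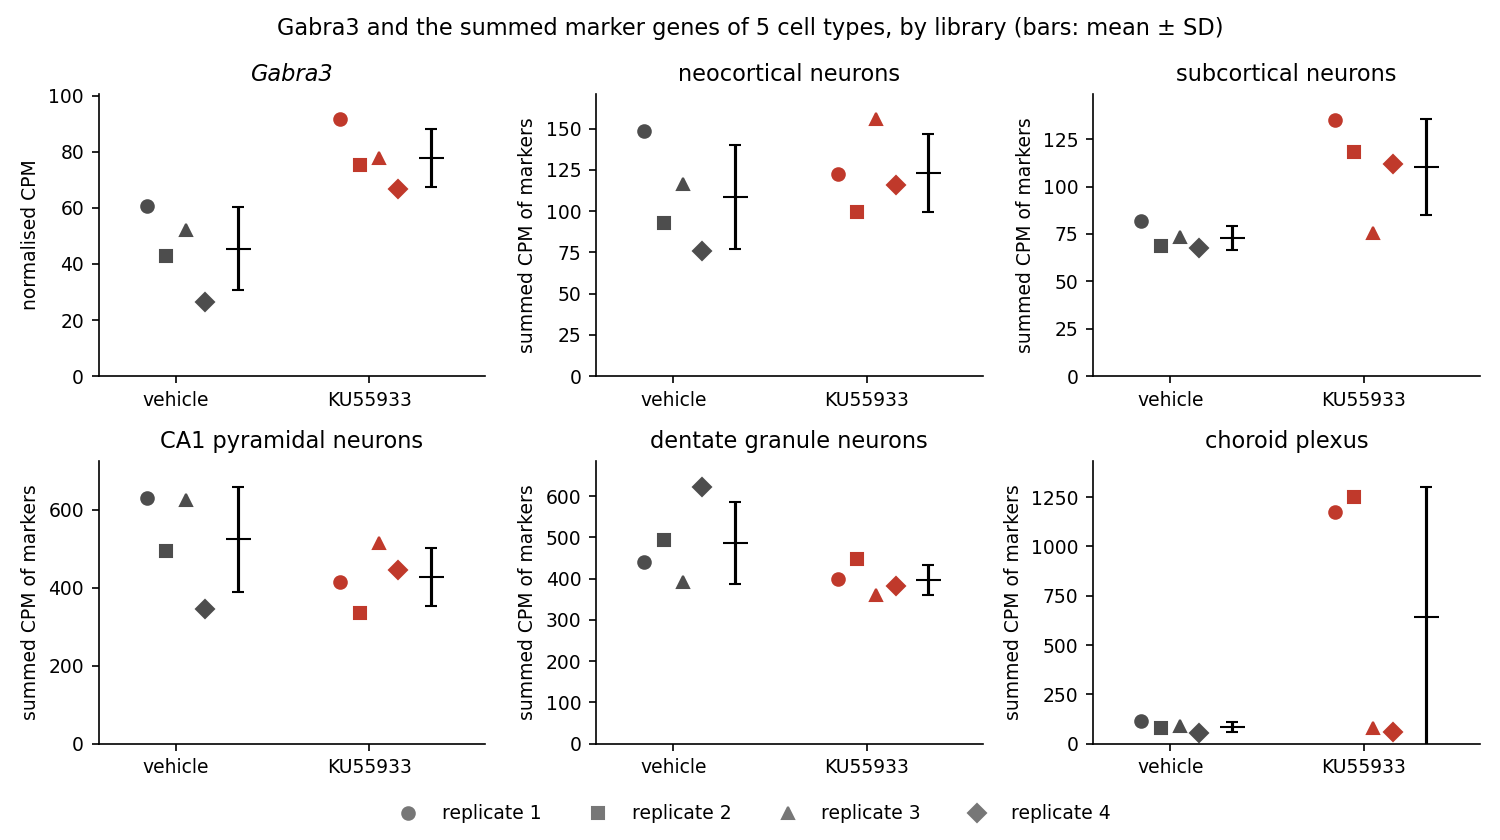
Normalised CPM of Gabra3 and summed CPM of the markers of 5 cell types in each library, by group, with 1 marker shape per replicate number and the group mean ± SD beside the points. Gabra3 separates the groups, subcortical markers do so in 3 of 4 KU55933 libraries, and choroid plexus markers are high in KU55933 replicates 1 and 2 only, so that the lower bar of that group runs off the axis.

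Among the single transcripts that could be tested, the largest log2 difference was in a Gabra5 mRNA rather than in Gabra3. Of the 17 transcripts, 13 had enough counts to be tested, which were 6 of 6 for Gabra2, 2 of 3 for Gabra3, 2 of 5 for Gabra4 and 3 of 3 for Gabra5. None of the 13 was called by edgeR, against 6.76% of all 45343 transcripts tested (1.06% higher and 5.7% lower). Of the 13, 3 had an unadjusted p under 0.05 (Gabra2-203, Gabra3-201 and Gabra5-201), and the share of all transcripts with such a p was not taken. DESeq2 called those 3, and of all 45343 transcripts it called 1757 higher and 3419 lower, more than edgeR did. With the offset for GC content and length edgeR again called none of the 13, 2 had an unadjusted p under 0.05, and 2.06% of all transcripts were called (1.05% higher and 1.01% lower). Counts per transcript are estimates, because most reads fit several transcripts of a gene. The split between transcripts is therefore less certain than the sum per gene.

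Gabra5 has 3 annotated transcripts, which share 8 exons and 1 coding sequence of 1389 bases and so encode the same protein. They differ in their first exon, in how far the last exon extends and in 1 further exon near the start that only Gabra5-202 has. The first exon of Gabra5-201 has 270 bases with 77.8% GC. That of Gabra5-202 has 193 bases with 71.5% GC, and that of Gabra5-203 has 56 bases with 58.9% GC. The last exon of Gabra5-201 ends 233 bases beyond that of Gabra5-203 and 47 bases beyond that of Gabra5-202.

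Gabra5-201 had 29.4, 40.7, 61.8 and 78.4 CPM in vehicle and 25.9, 17.0, 28.5 and 29.1 CPM with KU55933, in replicate order. The groups did not overlap, by a margin of 29.4 against 29.1 CPM, as for 17.2% of all transcripts tested. The vehicle libraries themselves spread more than the KU55933 libraries. The means were 52.5 ± 21.8 and 25.1 ± 5.59 CPM, a 2.09-fold difference, and the log2 difference was −1.06 ± 0.31 (interval −1.78 to −0.35, edgeR, adjusted p = 0.0890). With the offset for GC content and length it was −1.02 ± 0.32 (adjusted p = 0.186), and it was not called. That offset used the GC content of whole transcripts, 47.1% for Gabra5-201, 46.2% for Gabra5-202 and 44.7% for Gabra5-203. It therefore cannot take out a trend that follows the GC content of the first exon. With each library left out in turn the log2 difference of Gabra5-201 ranged from −1.26 to −0.81 (adjusted p = 0.0359 to 0.241), past the threshold only without vehicle replicate 1. Without vehicle replicate 4 it was −0.81 and without KU55933 replicate 2 it was −0.83. DESeq2 gave −0.97 (adjusted p = 0.0213).

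Gabra5-202 and Gabra5-203 had higher means with KU55933 and overlapping groups. Gabra5-202 had 82.1, 102.2, 79.4 and 82.4 CPM in vehicle and 114, 113, 89.1 and 94.0 CPM with KU55933. Its log2 difference was 0.24 ± 0.12 (edgeR, adjusted p = 0.299). Gabra5-203 averaged 57.8 ± 18.1 CPM in vehicle and 69.4 ± 12.6 CPM with KU55933, a log2 difference of 0.27 ± 0.23 (edgeR, adjusted p = 0.614). Summed, these transcripts averaged 144 ± 25.2 CPM in vehicle and 172 ± 21.1 CPM with KU55933, while the whole gene averaged 194 ± 13.1 and 198 ± 18.1 CPM.

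As a share of all Gabra5 counts, Gabra5-201 made up 15.8%, 19.0%, 32.5% and 39.7% in the vehicle libraries and 11.4%, 8.95%, 15.2% and 15.8% in the KU55933 libraries. The difference of the means was −13.9 percentage points (exact two-sided permutation test, p = 0.0571, adjusted p = 0.371 over 13 transcripts). With 4 libraries against 4 the smallest p this test can give is 0.0286. The share of Gabra5-202 was 43.9% ± 2.80 in vehicle and 52.1% ± 5.05 with KU55933 (exact permutation p = 0.0571, adjusted p = 0.371). Neither shift passed after adjustment. With that smallest p, a shift of these transcripts alone could not pass over 13, so this outcome says nothing about them. The library GC slopes, in replicate order, were 0.136, 0.196, 0.273 and 0.260 in vehicle and −0.279, −0.348, −0.117 and −0.120 with KU55933. The part of the GC trend in these shares was not tested.

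**Figure D5:**
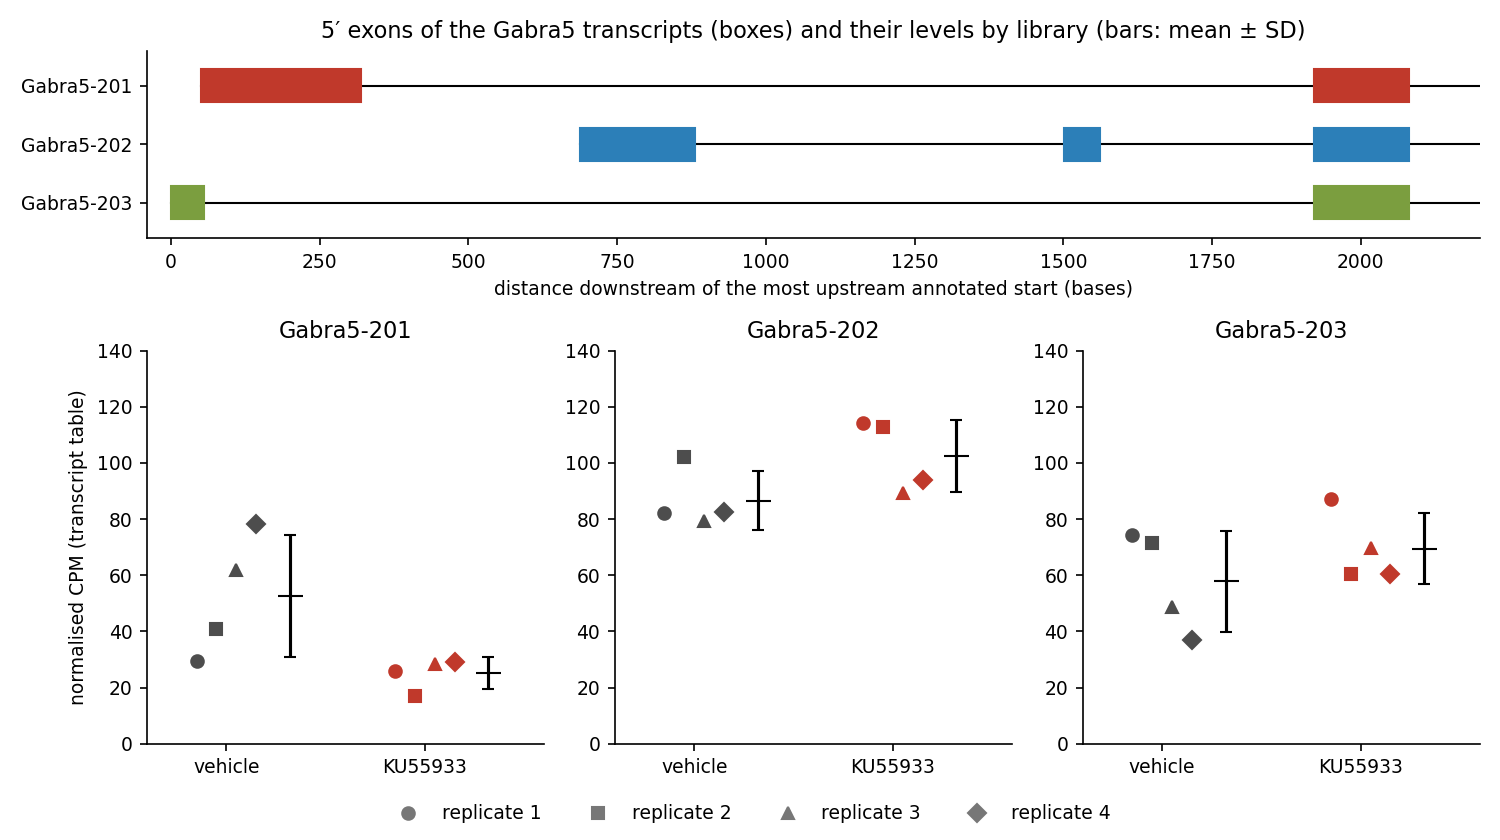
The 5′ exons of the Gabra5 transcripts drawn as boxes by distance from the most upstream start, and the CPM of Gabra5-201, Gabra5-202 and Gabra5-203 in each library with the group mean ± SD. Gabra5-201 is at or above 29.4 CPM in every vehicle library and at or below 29.1 CPM in every KU55933 library.

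The other members were each dominated by 1 or 2 transcripts. Gabra3-201, the protein-coding transcript of 3662 bases, held more than 98% of all Gabra3 counts in every library. It averaged 45.9 ± 15.6 CPM in vehicle and 76.5 ± 11.5 CPM with KU55933 without overlap of the groups. Its log2 difference of 0.74 ± 0.25 was not called among all transcripts (edgeR, adjusted p = 0.138). Gabra4-201 averaged 111 ± 7.23 CPM in vehicle and 122 ± 14.6 CPM with KU55933, a log2 difference of 0.14 ± 0.10 (edgeR, adjusted p = 0.498). The 4 transcripts that were not tested, Gabra3-202, Gabra4-202, Gabra4-203 and Gabra4-205, averaged 0.0627 to 0.358 CPM in the 2 groups.

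Most Gabra2 counts fell on a protein-coding transcript and on a transcript annotated for nonsense-mediated decay. Gabra2-202 held a smaller mean share, 9.66% in vehicle and 8.19% with KU55933. The coding transcript Gabra2-203 had 72.8, 87.2, 73.6 and 69.6 CPM in vehicle and 95.8, 98.6, 86.9 and 94.3 CPM with KU55933. Only vehicle replicate 2 and KU55933 replicate 3 overlapped, and the log2 difference was 0.31 ± 0.09 (edgeR, adjusted p = 0.0823). Gabra2-204, annotated as a target of nonsense-mediated decay, had 38.3, 28.7, 29.9 and 29.2 CPM in vehicle and 43.3, 39.4, 26.1 and 27.95 CPM with KU55933. Its log2 difference was 0.12 ± 0.18 (edgeR, adjusted p = 0.805). Gabra2-202, which retains an intron, ranged from 4.15 to 14.9 CPM in vehicle and from 5.37 to 17.2 CPM with KU55933, a spread too wide to read a difference of 0.0025 ± 0.49. The remaining tested transcripts of the members, Gabra2-201, Gabra2-205, Gabra2-206, Gabra3-203 and Gabra4-204, all averaged under 1 CPM.

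The promoters of the 4 genes differed more in base composition than the transcripts did. Each RefSeq promoter (build GRCm38.p6) covers 250 bases before and 50 bases after a gene's start. Over all 32851 promoters the median was 52.7% GC with 7 CG dinucleotides. The extremes among the members are shown because Gabra2 and Gabra3 lie at opposite ends here. The Gabra2 promoter, chr5:71095800-71096099 on the minus strand, has 70% GC and 25 CG dinucleotides, which are in capitals. The Gabra3 promoter at chrX:72656758-72657057, also on the minus strand, has 39.3% GC and no CG dinucleotide. Its capitals mark a match to TATAAA on the opposite strand.
Gabra2: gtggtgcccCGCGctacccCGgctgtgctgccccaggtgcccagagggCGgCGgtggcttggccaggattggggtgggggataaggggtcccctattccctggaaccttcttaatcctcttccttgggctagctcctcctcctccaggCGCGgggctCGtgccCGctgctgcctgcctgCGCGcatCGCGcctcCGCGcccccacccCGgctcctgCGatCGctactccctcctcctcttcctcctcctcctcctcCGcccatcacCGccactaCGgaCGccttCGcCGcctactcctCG
Gabra3: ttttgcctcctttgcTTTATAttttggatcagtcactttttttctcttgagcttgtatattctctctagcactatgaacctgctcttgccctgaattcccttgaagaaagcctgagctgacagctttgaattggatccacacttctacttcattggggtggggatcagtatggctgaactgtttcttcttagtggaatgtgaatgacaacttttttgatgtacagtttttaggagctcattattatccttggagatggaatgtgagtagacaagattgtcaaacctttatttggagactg
The second Gabra3 promoter overlaps the first, has 43% GC and holds the same match. Gabra4 (chr5:71658259-71658558, 58.7% GC, 12 CG) and Gabra5 (chr7:57510010-57510309, 56.7% GC, 13 CG) lie between them. On both strands, TATAAA occurs in 13.6% of all promoters, the cAMP response element TGACGTCA in 1.79% and the EGR motif GCGNGGGCG in 5.55%. Neither of the last 2 was found in a promoter of the 4 genes, and TATAAA was found only in those of Gabra3. These windows were read from another build than the authors used, and nothing in the deposited counts bears on factor binding there.

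Alpha subunits are assembled with beta, gamma and delta subunits, whose genes lie next to them in the genome. Gabra2 and Gabra4 are neighbours of Gabrg1 and Gabrb1 on chromosome 5, Gabra5 of Gabrg3 on chromosome 7, and Gabra3 of Gabre and Gabrq on chromosome X. Of the 14 other genes with a symbol starting Gabr, 11 were tested. The test called 3 of the 11 higher and none lower. Of all genes, 6.92% were called higher and 14.6% lower (21.6% in either direction). The median log2 difference of the 11 was 0.27, beside 0.01 for all genes. With the offset for GC content and length, none of the 11 was called by edgeR, 2 had an unadjusted p under 0.05, and the median was 0.06.

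The 3 called genes were a beta and a pair of gamma subunits. Gabrb1 (beta 1) rose from 247 ± 15.7 to 298 ± 32.2 CPM, a log2 difference of 0.27 ± 0.09 (edgeR, adjusted p = 0.0491). Gabrg1 (gamma 1) rose from 16.2 ± 3.56 to 23.9 ± 4.10 CPM, with a log2 difference of 0.56 ± 0.16 (adjusted p = 0.0347). Gabrg3 (gamma 3) rose from 22.5 ± 2.67 to 28.4 ± 1.62 CPM, with a log2 difference of 0.33 ± 0.10 (adjusted p = 0.0335). The calls of Gabrb1 and Gabrg1 were lost when vehicle replicate 2, 3 or 4 or KU55933 replicate 1, 2 or 3 was left out. That of Gabrg3 was lost without vehicle replicate 2 or 4 or KU55933 replicate 1, 2 or 3. The adjusted p then ranged up to 0.143 (Gabrb1 without vehicle replicate 3).

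Among the subunits that were not called, Gabrd (delta), the partner of alpha 4 in granule neurons, had 24.8 ± 5.10 CPM in vehicle and 18.7 ± 2.77 CPM with KU55933. Its log2 difference was −0.41 ± 0.15 (edgeR, adjusted p = 0.0791), against 0.17 for Gabra4. With the offset it was −0.08. Gabrq (theta), a neighbour of Gabra3 on the X chromosome, had 1.404, 0.742, 1.29 and 0.372 CPM in vehicle and 3.69, 3.64, 1.57 and 0.987 CPM with KU55933. Its groups overlapped, and the log2 difference was 1.36 ± 0.50 (edgeR, adjusted p = 0.0789).

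A second list held 22 genes for GABA synthesis and release, anchoring of the receptor at the synapse, and its assembly and trafficking. All 22 were tested, 4 were called lower, none higher and 18 were not called, with a median log2 difference of −0.01. A share of 4 in 22 is near the background, since 14.6% of all genes were called lower and 21.6% in either direction. Slc32a1, the gene of the transporter that loads GABA into vesicles, fell from 47.8 ± 6.53 to 29.4 ± 4.10 CPM (log2 difference −0.70 ± 0.12, edgeR, adjusted p = 0.0033). Slc32a1 is also 1 of 10 interneuron markers, which summed to 656 to 748 CPM in vehicle and 666 to 824 CPM with KU55933. Of these 10, 4 were called lower (Slc32a1, Sst, Npy and Dlx5), none higher, none was at 0 in all libraries, and none was called by edgeR with the offset, where 4 had an unadjusted p under 0.05. The part of these cells in the values of Slc32a1 was not tested. Nlgn2, the adhesion protein neuroligin 2 of inhibitory synapses, fell from 275 ± 8.56 to 209 ± 19.3 CPM (log2 difference −0.40 ± 0.08, adjusted p = 0.0060). Insyn1, a protein of inhibitory postsynapses, fell from 145 ± 13.1 to 67.6 ± 9.02 CPM (log2 difference −1.10 ± 0.11, adjusted p = 0.0005). Trak1, a trafficking adaptor, fell from 209 ± 10.9 to 173 ± 13.0 CPM (log2 difference −0.27 ± 0.08, adjusted p = 0.0293).

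The call of Trak1 was lost when any 1 vehicle library or KU55933 replicate 2 or 4 was left out (adjusted p up to 0.0776), while the other three kept their calls without any 1 library. These 4 genes are richer in GC than the members, at 61.9% (Slc32a1), 59.5% (Nlgn2), 62.0% (Insyn1) and 54.8% (Trak1). With the offset, the log2 difference was 0.21 for Slc32a1, 0.22 for Nlgn2, −0.16 for Insyn1 and −0.09 for Trak1. None of the 22 was then called by edgeR, and 3 had an unadjusted p under 0.05. Gphn, which encodes the gephyrin scaffold that holds receptors with alpha 2 at synapses, differed by 0.20 without the offset (adjusted p = 0.0625) and by 0.05 with it. Rdx, which encodes radixin, the anchor of receptors with alpha 5, differed by 0.11 (adjusted p = 0.401). The GABA-synthesising enzymes Gad1 and Gad2 differed by 0.21 (adjusted p = 0.0927) and 0.36 (adjusted p = 0.0572).

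The genes most like each member across libraries were taken by Pearson's r of log2 CPM over the 8 libraries among 11202 genes with a mean of at least 5 CPM. For Gabra3 they were Elavl4 (r = 0.987), Sertm1 (0.987), Timp2 (0.986) and Gab2 (0.986). Elavl4, a neuronal RNA-binding protein gene, and Timp2, a metalloproteinase inhibitor gene, were themselves called higher with KU55933 by edgeR, with log2 differences of 0.51 (adjusted p = 0.0438) and 0.46 (adjusted p = 0.0374). Elavl4 has 38.3% GC, Sertm1 48.7%, Timp2 53.7% and Gab2 51.4%, beside 43.1% for Gabra3. For Gabra2 they included Zfp871 (r = 0.976), which has 40.02% GC, beside 38.4% for Gabra2. For Gabra4 they were Npy2r, a neuropeptide Y receptor gene (r = 0.986), Rprd1a (0.974), Rasa1 (0.972) and Rbbp7 (0.959). For Gabra5 they were Lrrc55 (r = 0.972), Babam2 (0.963), Ppp1r14c (0.955) and Mpped2 (0.953). The values of r describe 8 points that share their library, depth and GC trend, and the highest of many genes are high by selection. Genes chosen this way tend to share the group difference of their member, so their calls are no separate support. Of all genes tested, 6.92% were called higher.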

How the data were processed

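The values the authors deposited were estimated counts for each transcript, as whole numbers, made with Salmon 1.4.0, per the submitters' processing notes, which also name FastQC 0.11.9, DESeq2 1.32.0 and GRCm39. Any filter is not given in the sources used here. Libraries were poly(A) and stranded (TruSeq), per the labels' protocols, whose text gives RNA input for other brain regions than the labelled hippocampus. Totals were 40586998 to 46630341 counts in vehicle and 34190440 to 37499003 with KU55933, so every vehicle library was deeper than every KU55933 library.

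Counts were summed per gene, filtered with filterByExpr (15481 genes), scaled by TMM and compared with the quasi-likelihood F test of edgeR (two-sided). Adjustment was by Benjamini-Hochberg over all genes tested and calls were made at 0.05. Versions were R 4.3.3, edgeR 4.0.16 and limma 3.58.1. Transcripts were tested likewise. GC content and length came from GENCODE mouse release 21 (build GRCm38), matched by transcript ID for 99.7% of transcripts, and no coordinate was carried between builds. The GC and length offset used splines with 6 and 5 degrees of freedom. The scripts were tested on simulated data.

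Named were the 4 members, their tested transcripts, called genes of the 2 lists and the 4 most similar genes of each member. Other genes named beside them (the uncalled subunits and partners) were chosen after their values were seen. The members and lists were chosen with earlier results of these data known, and some genes that met this rule or stand in a list are not reported here. Alternatives were other scalings, filters and tools (DESeq2 1.42.0), the replicate number as a block and each library left out. Leaving out KU55933 replicates 1 and 2 together with the offset was added after seeing the data.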

Additional observations from a re-analysis of the deposited data

Results flagged for a closer look

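In 5 of 34 groups of 4 libraries, 1 library stood apart from the other three by Dixon's test at the 95% level, which chance flags in about 1 of 20 groups. Gabra5 was highest in KU55933 replicate 1, at 225 CPM, beside 187, 189 and 192 CPM in the others, and the same library had the highest Gabra3 value. Gabra5-202 was highest in vehicle replicate 2, at 102.2 CPM beside 79.4, 82.1 and 82.4 CPM. In vehicle replicate 1, Gabra2-202, the transcript with a retained intron, was lowest at 4.15 CPM beside 13.4, 14.1 and 14.9 CPM. In the same library Gabra2-204, the transcript annotated for nonsense-mediated decay, was highest at 38.3 CPM beside 28.7, 29.2 and 29.9 CPM. Gabra3-203, a minor transcript, was lowest in vehicle replicate 4, at 0.121 CPM beside 0.459, 0.479 and 0.513 CPM.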

How the results depend on the processing

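The log2 difference of Gabra3 was above 0 in every setting run, though in some its 95% interval crossed 0. Its call was lost without a filter on low counts (log2 difference 0.77, adjusted p = 0.0629), with the offset for GC content and length (0.59), without KU55933 replicates 1 and 2 (0.67) and with both of the last (0.53). Leaving out 1 library gave 0.59 to 0.95, and 0.40 to 0.74 with the offset. Gabra2 passed with RLE scaling (0.27), a filter of 1 CPM (0.26), DESeq2 (0.27) and a threshold of 0.1 (0.26). Leaving out 1 library gave 0.20 to 0.33, past the threshold only without KU55933 replicate 3, and −0.0080 to 0.09 with the offset. Without KU55933 replicates 1 and 2 and with the offset it was −0.0016. Gabra4 was 0.028 without KU55933 replicates 1 and 2, and turned negative with the offset (−0.042) and with both (−0.12). Leaving out 1 library gave 0.11 to 0.23, and −0.084 to 0.0066 with the offset. Gabra5 turned negative with the offset (−0.12), without KU55933 replicates 1 and 2 (−0.043) and with both (−0.17). With each library left out in turn it was −0.036 to 0.065, and −0.19 to −0.092 with the offset. The cause of these changes was not tested.

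Replicate numbers were shared between groups, but same-numbered libraries did not all deviate together (correlations 0.294, 0.084, 0.039 and 0.202). For vehicle replicates 1, 2 and 4 the same-numbered KU55933 library gave the highest correlation. For vehicle replicate 3 it was KU55933 replicate 2 (0.075). The number was therefore used as a replicate block only as an alternative. With the replicate block 1720 genes were higher and 2724 lower. Gabra2 passed (0.26, edgeR, adjusted p = 0.0340) and Gabra3 kept its call (0.83, adjusted p = 0.0023). In this setting 6 other subunits were higher and 1 lower, 2 partners were higher, and 1517 transcripts were lower. With the block and the offset, 346 genes were higher and 444 lower, Gabra3 differed by 0.63 (adjusted p = 0.0422), Gabra4 by −0.040 and Gabra5 by −0.12, no partner was lower (0), and 2 other subunits were higher.

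Against 1071 genes higher, there were 692 without a filter, 1840 by DESeq2, 104 with the offset, 105 without KU55933 replicates 1 and 2, 4 with both and 2172 at a threshold of 0.1. Against 2267 lower, there were 200 with the offset, 985 without the 2 libraries and 28 with both. Any 1 library fewer gave 151 to 1790 higher and 1446 to 2558 lower, and 24 to 327 and 54 to 385 with the offset. Of other subunits, 6 were higher by DESeq2 and at a threshold of 0.1, with 1 lower in each, and 0 were higher with the offset, without the 2 libraries, or both. With 1 library fewer, 0 to 5 were higher and 0 to 1 lower. Of partners, 1 was higher with upper-quartile scaling, 2 by DESeq2 and 3 at a threshold of 0.1, and 0 were lower with the offset, with or without the 2 libraries. Any 1 library fewer gave 0 to 2 higher and 3 to 5 lower, and 0 with the offset. Of transcripts, 1757 were higher by DESeq2, and 1723 were lower with RLE scaling and 458 with the offset. With 1 library fewer there were 231 to 776 higher and 1209 to 2242 lower. Minor transcripts changed sign: Gabra2-201 with the replicate block (−0.21), and Gabra2-202 (−0.13), Gabra2-205 (−0.028) and Gabra3-203 (−0.093) with the offset. With 1 library fewer the values were −0.26 to 0.51 for Gabra2-201, −0.28 to 0.26 for Gabra2-202, −0.020 to 0.30 for Gabra2-205, −0.51 to 0.17 for Gabra2-206, −0.22 to 0.28 for Gabra3-203 and −0.26 to 0.42 for Gabra4-204. Low counts kept 4 member transcripts and 3 other subunit genes out of the test.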
